A study of Mus musculus with 8 samples.

Results

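The collagen genes were chosen by name, as every gene whose only annotated symbol has the form Col, a number, a, a number, and 42 of the 18820 genes on the arrays met this rule. They comprise 11 fibrillar collagens, 8 basement membrane collagens (types IV, XV and XVIII) and 23 others. The RNA came from the epididymal fat pad, a visceral white fat depot, of male mice on a C57BL/6 background. The IL37TG group (4 arrays) carried a transgene for the human cytokine IL-37, a relative of IL-1, and the WT group (4 arrays) was wild type. Mice of both groups were fed a high-fat diet (45% of energy from fat) for 16 weeks, after a run-in of 2 weeks on a low-fat diet (10%). The labels give no age and no promoter for the transgene, and do not tie each array to its own animal. The p-values here reflect the spread among these arrays, which may be technical. They state that the wild-type mice were bought in while the transgenic line had been described earlier, so that transgene and source of the animals cannot be told apart.

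Collagens are proteins of the extracellular matrix whose chains wind round each other in triple helices. Fibrillar collagens (types I, III and V among them) assemble into the cables that carry tension, type IV chains join into the sheet-like network of basement membranes, which surround each fat cell and each capillary, and type VI forms beaded filaments that are abundant around fat cells. In fat of obese animals collagens are known from fibrosis of the tissue, in which fibroblasts and progenitor cells lay down matrix around adipocytes.

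The promoter windows of 4 genes are given because Col4a1 and Col4a2 lie head to head and had lower means in IL37TG fat, Col1a2 stands for the type I chains, and Col15a1 was the 1 collagen whose IL37TG values were all higher. Each window runs from 250 bases before to 50 bases after the gene start (RefSeq, GRCm38.p6), written 5′ to 3′ on the gene's strand. Capitals mark 3 motifs searched on both strands, the GC box (GGGCGG), the CCAAT box (CCAAT) and the TATA box (TATAAA), none of which contains another.
Col4a2 (chr8:11312555-11312854, plus strand): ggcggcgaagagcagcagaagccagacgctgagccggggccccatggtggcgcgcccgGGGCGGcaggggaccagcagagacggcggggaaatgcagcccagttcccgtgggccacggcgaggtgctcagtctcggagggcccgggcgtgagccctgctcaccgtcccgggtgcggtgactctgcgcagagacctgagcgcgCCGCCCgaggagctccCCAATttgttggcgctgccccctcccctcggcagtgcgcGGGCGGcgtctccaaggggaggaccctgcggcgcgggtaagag
Col4a1 (chr8:11312777-11313076, minus strand): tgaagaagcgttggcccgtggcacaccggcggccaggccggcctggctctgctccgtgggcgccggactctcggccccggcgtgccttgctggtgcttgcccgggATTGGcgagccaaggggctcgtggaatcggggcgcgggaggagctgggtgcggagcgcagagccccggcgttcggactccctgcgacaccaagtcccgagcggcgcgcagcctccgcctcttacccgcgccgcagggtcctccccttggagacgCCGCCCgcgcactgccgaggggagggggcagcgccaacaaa
Col1a2 (chr6:4505368-4505667, plus strand): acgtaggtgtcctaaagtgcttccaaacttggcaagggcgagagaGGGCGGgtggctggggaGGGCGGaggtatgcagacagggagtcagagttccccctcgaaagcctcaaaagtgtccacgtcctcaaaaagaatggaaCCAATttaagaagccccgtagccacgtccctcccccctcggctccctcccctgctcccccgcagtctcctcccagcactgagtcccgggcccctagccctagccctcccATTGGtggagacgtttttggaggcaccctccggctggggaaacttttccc
Col15a1 (chr4:47207762-47208061, plus strand): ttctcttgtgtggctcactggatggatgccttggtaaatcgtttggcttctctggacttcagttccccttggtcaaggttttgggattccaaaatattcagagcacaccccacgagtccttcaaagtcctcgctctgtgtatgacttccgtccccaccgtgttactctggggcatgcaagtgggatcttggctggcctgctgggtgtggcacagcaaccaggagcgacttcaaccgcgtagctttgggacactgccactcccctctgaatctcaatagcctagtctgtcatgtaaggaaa

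The Col4a1 and Col4a2 windows share 78 bases, read on opposite strands, so a GC box in the shared stretch is the same one in both. Col4a2 held 3 GC boxes and 1 CCAAT box, Col4a1 held 1 of each and Col1a2 held 2 of each. None of the 3 motifs was found in the Col15a1 window. The windows of Col28a1, Col6a1 and Col6a3, which are not printed, also held none, though the means of these genes were lower in IL37TG fat. A link between motifs and the direction of a difference was not tested. Windows were found for 34 of the 42 collagen genes, 37 in all. Of these, 22 (59.5%) held a GC box, 12 (32.4%) a CCAAT box and 5 (13.5%) a TATA box. Over all 32851 windows the shares were 35.7%, 37.4% and 13.6%. These matches describe letters in the windows and not bound sites.

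The values are log2 levels from RMA, a procedure that corrects background and equalises the distributions of the arrays, and the medians of the 8 arrays ran from 5.97 to 6.04. A level reflects a gene's probes as well as its RNA, and levels were therefore not compared between genes. As a guide to brightness, 18 of the 42 collagens had a mean over all arrays at or above that of the median gene (6.74), 24 lay below it, and 2 of these, Col6a4 and Col19a1, were dimmer than the 25th percentile of genes (4.49). Splitting the collagens at the median gene was decided after their values were seen. Adipocyte markers were high (mean of 7 genes 12.49 to 12.56 in IL37TG and 12.36 to 12.46 in WT arrays), and markers of epididymal epithelium averaged 3.50 to 3.74 and 3.53 to 3.89, near the bottom of the scale. In this bulk tissue, fewer cells of a type and less RNA per cell cannot be told apart. No probe set of the human transgene was found in the annotation used, so the genotype labels were not checked against it.

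The comparison asked whether the collagen RNAs of obese fat differ with the IL-37 transgene. No collagen gene passed the test: 0 of 42 were higher and 0 lower in IL37TG fat (limma over all genes, Benjamini-Hochberg adjusted p at most 0.05), where 3.34% of all genes were called (2.07% higher, 1.27% lower). The smallest adjusted p was that of Col4a2 (limma, 0.0509), just outside the threshold. At an adjusted p of at most 0.1, 3 collagens were lower (Col1a1, Col4a2 and Col28a1) and none higher, where 8.17% of all genes were called. At an unadjusted limma p of at most 0.05, 8 collagens were lower (Col1a1, Col1a2, Col5a2, Col4a1, Col4a2, Col6a3, Col12a1 and Col28a1) and 1 was higher (Col15a1). That is 19.0% and 2.38% of the 42, where 9.42% and 11.2% of all genes were lower and higher at the same limit. The count of 8 was 13 without WT replicate 3, 5 without WT replicate 1, WT replicate 4 or IL37TG replicate 4, and 4 without WT replicate 2. Calls over all genes, at a limma adjusted p of at most 0.05, moved the same way in these removals. From 629 they became 1188 without WT replicate 3. They were 110, 82, 231 and 161 without WT replicate 1, WT replicate 4, IL37TG replicate 4 and WT replicate 2. The changes in the count were therefore not read as particular to collagens.

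The differences (IL37TG minus WT, log2) ran from -0.63 to 0.23 with a median of -0.02, against a median of 0.02 over all genes, and 24 of the 42 were below 0, as were 44.7% of all genes. They were uneven with brightness. Of the 18 collagens at or above the median gene, 15 had a difference below 0, with a median of -0.32, and 7 were lower at the unadjusted limit (38.9%, against 13.4% of the 9410 genes this bright). The 1 that was higher at that limit compares with 16.0% of the genes this bright. The 24 dimmer collagens had differences with a median of 0.03, 15 of them above 0. The groups did not overlap for 4 of 42 collagens (9.52%), 1 of them higher and 3 lower in IL37TG, where 14.0% of all genes did not overlap (8.24% higher and 5.73% lower). Among the 18 brighter collagens 3 did not overlap, against 20.9% of all genes this bright.

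**Figure D1:**
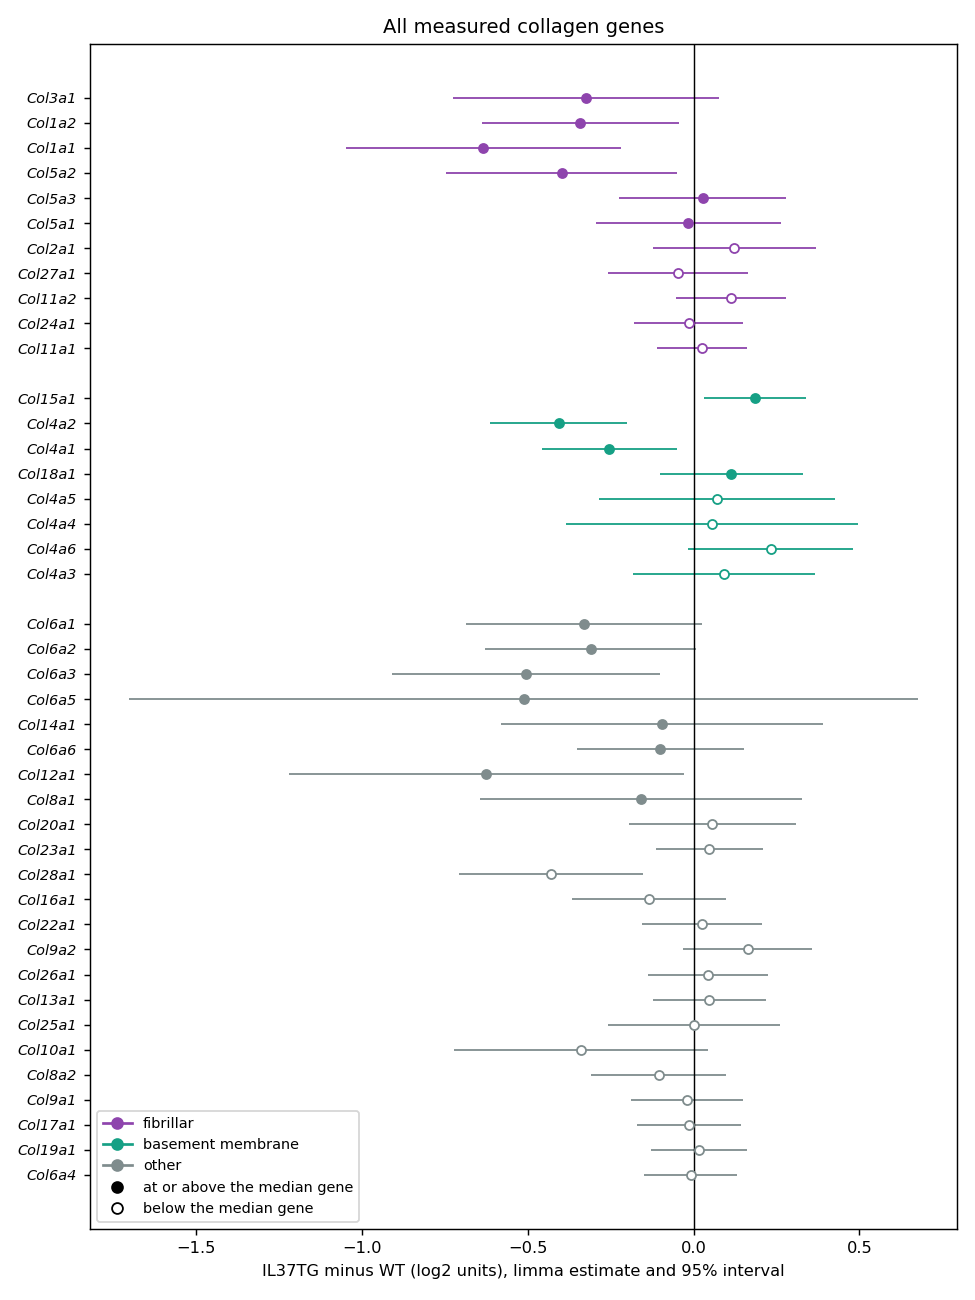
Difference of each of the 42 collagen genes (IL37TG minus WT, log2 units) with its limma 95% interval, not adjusted for multiple tests, by class and ordered from the highest to the lowest mean level within a class. Filled points are genes at or above the median gene level (15 of 18 below 0) and open points are dimmer genes (9 of 24 below 0).

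Type I collagen, the main fibre of connective tissue, is built of 2 chains from Col1a1 and 1 from Col1a2. Col1a1 read 9.36, 9.68, 9.64 and 9.23 log2 units in IL37TG fat, against 10.46, 10.32, 9.68 and 9.98 in WT fat. All 4 transgenic arrays lay below all 4 wild-type arrays, but the gap between IL37TG replicate 2 and WT replicate 3 was 0.00636. The groups of Col1a1 overlapped when arrays were centred on their medians. Its mean was 9.48 ± 0.22 in IL37TG and 10.11 ± 0.35 in WT (SD, n = 4 each), a difference of -0.63 (SE 0.18, 95% interval -1.05 to -0.22) or 1.55-fold lower that missed the threshold (limma adjusted p = 0.0981). Without WT replicate 3, its lowest wild-type array, whose removal was bound to widen the difference, it was -0.78 and passed (limma adjusted p = 0.0302).

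Col1a2 read 9.78, 9.86, 9.77 and 9.51 in IL37TG, against 10.37, 10.14, 9.80 and 9.97 in WT, and the groups overlapped at WT replicate 3. Its difference was -0.34 (SE 0.13, limma adjusted p = 0.186). Both type I chains thus had the same order of the wild-type arrays, with replicate 1 highest and replicate 3 lowest.

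Col3a1, the single chain of type III collagen that runs with type I in soft tissues, read 10.02, 10.18, 9.83 and 9.57 in IL37TG, against 10.41, 10.48, 9.82 and 10.19 in WT. The groups overlapped, with WT replicate 3 inside the transgenic range, and the difference was -0.32 (SE 0.17, limma adjusted p = 0.336). Its neighbour Col5a2, a chain of type V collagen, which nucleates type I fibrils, read 8.27, 8.27, 8.03 and 7.75 in IL37TG, against 8.64, 8.61, 8.14 and 8.50 in WT (difference -0.40, SE 0.15, limma adjusted p = 0.188). WT replicate 3 again lay within the transgenic values. The other type V chains did not share this difference: Col5a1 differed by -0.02 (95% interval -0.30 to 0.26) and Col5a3 by 0.03 (-0.22 to 0.28). The differences between the chains were not tested.

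The remaining 5 fibrillar collagens, which include those of cartilage (Col2a1, Col11a1 and Col11a2), were below the median gene level, between 4.64 and 5.67, and their differences ran from -0.05 to 0.12. Averaged over the 11 fibrillar genes, the arrays read 7.24, 7.26, 7.21 and 6.97 in IL37TG, against 7.44, 7.41, 7.08 and 7.29 in WT. The mean difference of the class was -0.13. Col1a1, Col1a2, Col3a1 and Col5a2 were the 4 members that differed by more than 0.3, and WT replicate 3 lay among the transgenic arrays.

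**Figure D2:**
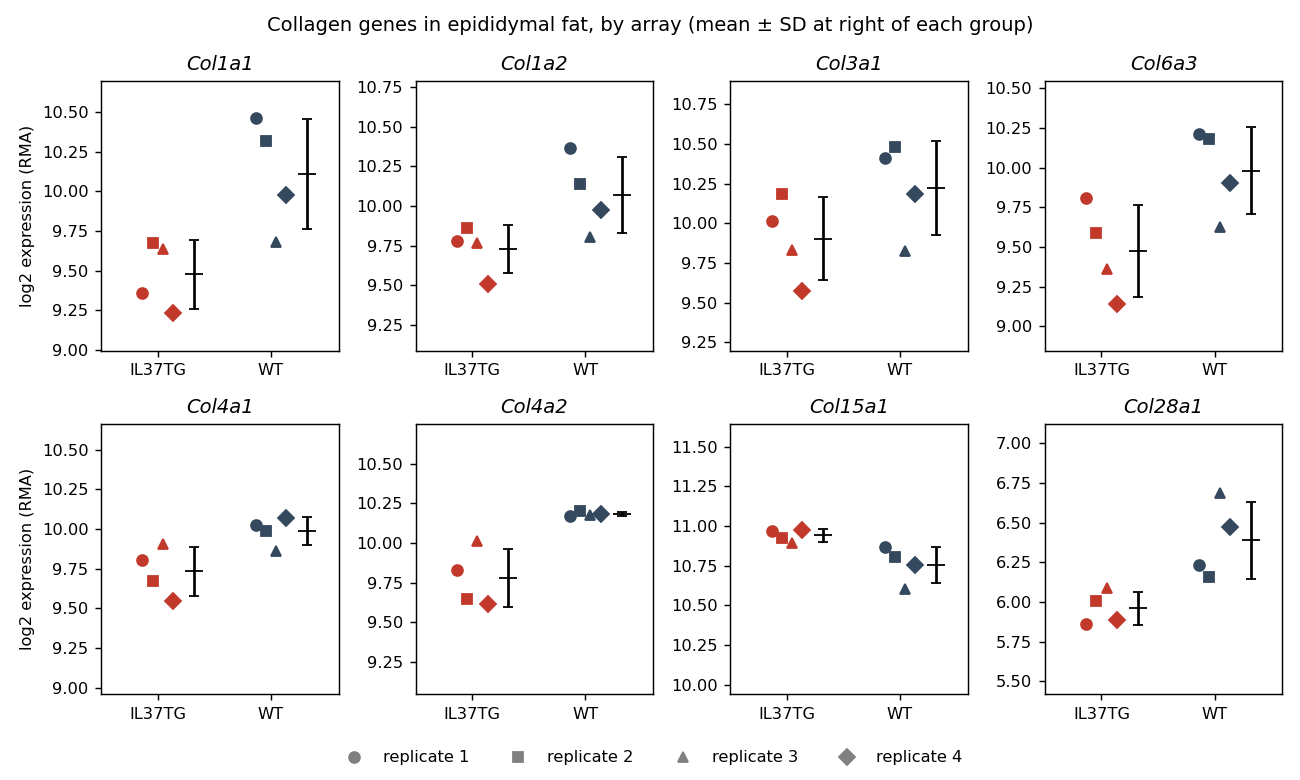
Log2 expression of 8 collagen genes on each array, IL37TG left and WT right in each panel, with marker shapes for replicate numbers and the mean ± SD (n = 4) beside each group; the axes of all panels span the same range. The groups do not overlap for Col1a1, Col4a2 and Col28a1 (lower in IL37TG) and Col15a1 (higher), and WT replicate 3 is the lowest wild-type array for Col1a1, Col1a2, Col3a1, Col6a3, Col4a1 and Col15a1.

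In basement membranes the chains of Col4a1 and Col4a2 form the common type IV helix. Col4a2 read 9.83, 9.65, 10.01 and 9.62 in IL37TG, against 10.17, 10.20, 10.18 and 10.18 in WT. All transgenic arrays were lower than all wild-type arrays, by a gap of 0.161, and the wild-type values lay close together (10.18 ± 0.01, against 9.78 ± 0.18 in IL37TG; SD, n = 4 each). The difference was -0.41 (SE 0.09, 95% interval -0.61 to -0.20), or 1.33-fold lower, with a limma adjusted p of 0.0509. It passed without IL37TG replicate 3, the highest transgenic array, whose removal was bound to widen it (-0.49, limma adjusted p = 0.0221). It also passed where fewer genes were tested or the variance was modelled otherwise, which made 5 of 19 alternatives in all. In the other 14 alternatives Col4a2 did not pass (limma adjusted p up to 0.523).

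Col4a1, which shares the 78 bases of promoter window printed above, read 9.81, 9.67, 9.91 and 9.55 in IL37TG, against 10.03, 9.99, 9.86 and 10.07 in WT. The groups overlapped through IL37TG replicate 3 and WT replicate 3. Its difference was -0.25 (SE 0.09, limma adjusted p = 0.155), in the same direction as that of Col4a2. On the transgenic side the 4 arrays held the same order for both genes, with replicate 3 highest and replicate 4 lowest.

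The chains of the specialised type IV networks of kidney and other epithelia, Col4a3 to Col4a6, were dimmer, between 5.37 and 5.98, and their differences were 0.09, 0.06, 0.07 and 0.23. None passed, the nearest being Col4a6 (95% interval -0.02 to 0.48, limma adjusted p = 0.271). Col4a1 and Col4a2 thus lay below 0 and Col4a3 to Col4a6 above it, and this contrast was not tested.

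Col15a1 encodes the core protein of a collagen and proteoglycan that links basement membranes to the fibrils around them. It read 10.97, 10.93, 10.89 and 10.98 in IL37TG, against 10.87, 10.80, 10.60 and 10.75 in WT. Every transgenic array was higher than every wild-type array, by a gap of 0.0246, and the overlap returned when arrays were centred on their medians. The difference was small, 0.18 (SE 0.07, 95% interval 0.03 to 0.34) or 1.14-fold, and did not pass (limma adjusted p = 0.169).

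Col18a1, the related gene whose protein yields endostatin, an inhibitor of vessel growth, read 7.99, 7.97, 7.79 and 7.78 in IL37TG, against 7.84, 7.89, 7.54 and 7.80 in WT (difference 0.11, limma adjusted p = 0.530). Over the 8 basement membrane genes the mean difference was 0.01, with 6 genes above 0 and 2 below. The class average overlapped fully, at 7.55 to 7.69 in IL37TG and 7.49 to 7.69 in WT arrays.

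Among the other collagens, type VI is assembled from 1 chain each of Col6a1, Col6a2 and Col6a3, and Col6a3 also gives rise to endotrophin, a fragment released by fat cells. Col6a3 read 9.81, 9.59, 9.36 and 9.14 in IL37TG, against 10.21, 10.18, 9.62 and 9.91 in WT. The groups overlapped at WT replicate 3 and IL37TG replicate 1, and the difference was -0.51 (SE 0.18, 1.42-fold lower, limma adjusted p = 0.155). Col6a1 read 10.81, 10.71, 10.53 and 10.16 in IL37TG, against 11.01, 11.08, 10.67 and 10.77 in WT, a difference of -0.33 (SE 0.16, limma adjusted p = 0.276). Its neighbour Col6a2 read 10.50, 10.46, 10.29 and 9.96, against 10.68, 10.84, 10.42 and 10.51 (difference -0.31, SE 0.14, limma adjusted p = 0.254). In all 3 genes the transgenic arrays stood in the same order, replicate 1 highest and replicate 4 lowest.

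Col6a5 and Col6a6 encode chains that can take the place of the third type VI chain. Col6a5 read 7.80, 10.38, 9.57 and 9.87 in IL37TG, against 10.33, 9.32, 9.84 and 10.18 in WT. IL37TG replicate 1 lay far below the others, and the difference of -0.51 (SE 0.52, 95% interval -1.70 to 0.68) became 0.0233 without that array. Col6a6 read 7.58, 8.04, 8.11 and 7.90, against 8.02, 7.99, 7.98 and 8.05, with the same array lowest; its difference of -0.10 became 0.00805 without it. Col6a4, in the same gene cluster, was at 4.41 ± 0.03 in IL37TG and 4.42 ± 0.10 in WT.

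Col28a1, a collagen related to type VI and known from the peripheral nervous system of mice, read 5.86, 6.01, 6.09 and 5.88 in IL37TG, against 6.24, 6.16, 6.69 and 6.47 in WT. The groups did not overlap, by a gap of 0.071, and here WT replicate 3 was the highest wild-type array. The difference was -0.43 (SE 0.12, 1.35-fold lower, limma adjusted p = 0.0948), at a level below that of the median gene.

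Of the 8 collagens that decorate fibrils without forming them, 4 differed upwards and 4 downwards. Col12a1, which binds type I fibrils in tissues under strain, read 7.76, 7.59, 8.15 and 6.999 in IL37TG, against 7.96, 8.55, 7.92 and 8.58 in WT. Its arrays overlapped and spread widely in both groups (difference -0.62, SE 0.26, limma adjusted p = 0.223). Col14a1, a related gene of fibroblasts, read 8.85, 9.52, 8.89 and 8.93, against 9.62, 8.79, 8.94 and 9.22, and differed by -0.10 (SE 0.21, limma adjusted p = 0.839).

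The 3 short-chain collagens of hexagonal networks, Col8a1, Col8a2 and Col10a1, differed by -0.16, -0.11 and -0.34 with overlapping groups. The 4 transmembrane collagens differed by -0.01 to 0.05, and their 95% intervals lay within -0.26 and 0.26. All 4 were below the median gene level. Over all 23 other collagens the mean difference was -0.14, and the 8 at or above the median gene level were all below 0, with a median of -0.32.

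The arrays differed in a pattern that many collagens shared. WT replicate 3 was the lowest wild-type array for 15 of the 18 brighter collagens, and WT replicate 1 or 2 was the highest for 15. Among the transgenic arrays replicate 4 was the lowest for 13. The average of the 18 genes was 9.01, 9.23, 9.12 and 8.88 in IL37TG, against 9.48, 9.39, 9.09 and 9.33 in WT, so that WT replicate 3 fell inside the transgenic range. Without that array, singled out here for its low values and whose removal could not lower the count of 4, the groups of 12 of all 42 collagens did not overlap, where 22.9% of all genes did not.

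**Figure D3:**
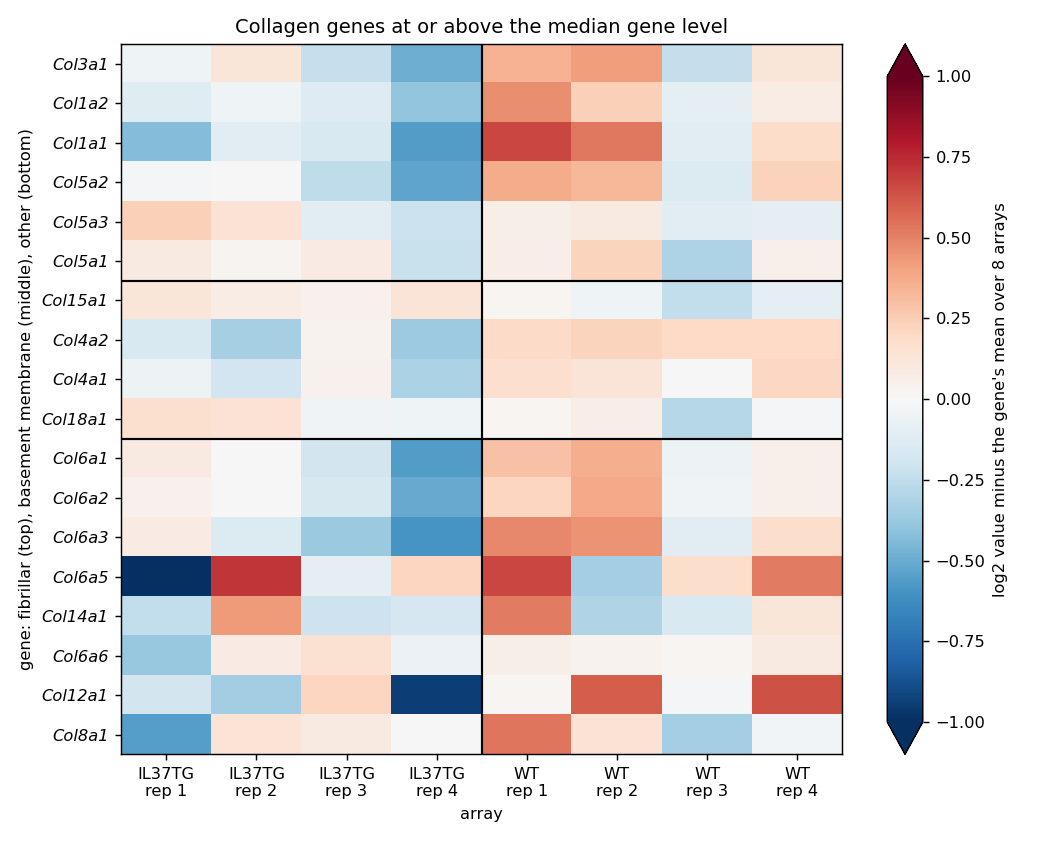
The 18 collagen genes at or above the median gene level, each value shown as its deviation from the gene's mean over the 8 arrays (log2 units, red above and blue below; deviations beyond 1 take the end colour), with IL37TG arrays left and WT arrays right and the classes divided by lines. WT replicates 1 and 2 are high and IL37TG replicate 4 is low for Col1a1, Col1a2, Col3a1, Col5a2 and Col6a1 to Col6a3, WT replicate 3 lies at or below the mean for these genes, and Col15a1 is higher on the IL37TG arrays.

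The array names hold a letter and a number whose meaning the labels do not give, and both were uneven between the groups. Letter G alone held both groups (IL37TG replicate 1, WT replicates 3 and 4). Within it the 11 fibrillar collagens differed by 0.06, the 8 of basement membranes by -0.13 and the 23 others by -0.17. Number 5 held IL37TG replicate 2 and WT replicate 3, number 7 held IL37TG replicate 3 with WT replicates 1 and 4, and number 9 held IL37TG replicates 1 and 4 with WT replicate 2. Within numbers 5, 7 and 9 the fibrillar collagens differed by 0.18, -0.16 and -0.30, those of basement membranes by 0.02, -0.01 and 0.10, and the others by 0.11, -0.18 and -0.21.

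Single genes held up unevenly against these divisions. Col4a2 differed by -0.53, -0.17 and -0.48 within the numbers and by -0.35 within letter G. Col28a1 differed by -0.68, -0.27 and -0.29 and by -0.72. Their groups did not overlap, which fixed these directions in advance. Col6a3 differed by -0.04, -0.70 and -0.70 within the numbers and by 0.05 within letter G.

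Markers of other cell types were read on the same arrays. The mean of 8 macrophage markers was 9.41, 9.40, 9.44 and 9.04 in IL37TG, against 10.16, 10.18, 9.30 and 9.81 in WT, so that WT replicate 3 was low for these too. Of the 8, Fcgr1, an antibody receptor of macrophages, fell (-1.09, limma adjusted p = 0.0469), a call that was lost on removal of any of 7 arrays, and 4 were lower at the unadjusted limit, as were 13.4% of all genes at or above the median gene level, where all 8 lay. Of 11 measured fibroblast and progenitor markers none passed, and their mean was 9.37 to 9.78 in IL37TG and 9.35 to 9.53 in WT. Of the 11, 7 were above 0 and 4 below, with a median difference of 0.10. Among the 7 above 0, Pi16 differed most, by 0.63 (limma adjusted p = 0.280), with overlapping groups. Among the 4 below 0, Pdgfrb, the PDGF receptor of pericytes and progenitors, differed by -0.30 (limma adjusted p = 0.0591) and Pdgfra by -0.20 (limma adjusted p = 0.326).

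Of 7 adipocyte markers, 6 were above 0 and 1 below, with a median difference of 0.11. Adipoq, the adiponectin gene, was the 1 that passed, where 2.07% of all genes were called higher. It rose (0.30, limma adjusted p = 0.0309), a call lost on removal of any of 7 arrays. The mean of 6 smooth muscle markers was 8.75 to 9.66 in IL37TG and 8.52 to 9.08 in WT, a mean difference of 0.43 with 5 of the 6 above 0 and none past the threshold. The mean of 8 endothelial markers was 10.20 to 10.34 and 10.11 to 10.26, and that of 8 mesothelial markers 7.82 to 8.30 and 7.30 to 8.59. The mean of 5 skeletal muscle markers was 5.14 to 5.27 and 5.02 to 5.13. Of these 5, 3 were above 0 and 2 below, with a median difference of 0.07, and 4 lay below the median gene level. The 1 that passed was Acta1, the muscle actin gene, which rose (0.72, limma adjusted p = 0.0206). Whether that call depends on single arrays was not examined. The part of these cell types in the collagen values was not tested.

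Genes that make, cut and bind collagen were then examined in 7 lists, and their calls stand beside 2.07% of all genes called higher and 1.27% called lower. Of 18 measured genes of collagen synthesis, which hydroxylate, glycosylate, fold and export the chains, none passed. The nearest were the lysyl hydroxylases Plod2, at 7.41, 7.79, 7.51 and 7.41 in IL37TG and 8.14, 7.81, 7.86 and 8.08 in WT (difference -0.44, limma adjusted p = 0.0750), and Plod1 (-0.25, limma adjusted p = 0.105). The groups overlapped for neither of the pair. The median difference of the list was -0.06.

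Of 12 genes that process procollagen or cross-link the fibrils, 1 fell and 1 rose. Lox, the lysyl oxidase that cross-links collagen and elastin, read 9.37, 9.64, 10.08 and 9.81 in IL37TG, against 10.63, 10.36, 10.32 and 10.46 in WT (difference -0.72, SE 0.15, limma adjusted p = 0.0445). Tll2, a tolloid-like protease, read 5.23, 5.52, 5.42 and 5.21, against 4.34, 4.37, 4.95 and 4.83 (difference 0.72, SE 0.15, limma adjusted p = 0.0482), at a level below that of the median gene. Each group pair was fully apart, but the Lox call was lost without any 1 of 6 arrays and that of Tll2 without any 1 of 7. Pcolce, the enhancer of procollagen C-proteinase, was looked at after its values were seen and missed the threshold (-0.55, limma adjusted p = 0.0572).

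Of 15 proteins that assemble with fibrils none passed. The nearest were Lum, the proteoglycan lumican that spaces collagen fibrils, at 9.77, 9.94, 9.78 and 9.37 in IL37TG and 10.84, 10.61, 10.21 and 10.24 in WT (difference -0.76, limma adjusted p = 0.0565), and Ccn2, the connective tissue growth factor gene (0.69, limma adjusted p = 0.196). The groups of Lum did not overlap, while those of Ccn2 did. Of 15 laminins and other basement membrane proteins none passed either, with Lama4 and Lamb2, laminin chains of vessels and muscle, at 0.26 each (limma adjusted p = 0.0937 and 0.101). For both of these every transgenic array was above every wild-type array. Of the 15, however, 7 were above 0 and 8 below, with a median difference of -0.03. The groups did not overlap for 4 of the 15 (26.7%), 3 higher and 1 lower, where 14.0% of all genes did not overlap.

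Of 11 collagen receptors 1 fell, Lair1, an inhibitory receptor of leukocytes for collagen, at 6.57, 6.40, 6.55 and 5.99 in IL37TG and 8.00, 8.00, 6.91 and 7.40 in WT (difference -1.20, SE 0.26, limma adjusted p = 0.0481). WT replicate 3 was its lowest wild-type array, as for the macrophage markers, and the call was lost without any 1 of 7 arrays. Of 10 genes of the TGF-beta pathway, a main inducer of collagen genes, 1 fell. This was the receptor gene Tgfbr1, at 8.41, 8.52, 8.23 and 8.26 in IL37TG and 8.97, 9.25, 8.88 and 8.98 in WT (difference -0.66, SE 0.10, limma adjusted p = 0.0180), with the groups fully apart and the call lost without WT replicate 1 (adjusted p = 0.0576) or WT replicate 4 (adjusted p = 0.0667).

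Of 16 genes of collagen breakdown and its inhibitors, 3 fell and 2 rose, and the median difference was -0.37. At the unadjusted limit 10 were lower and 3 higher, where 9.42% and 11.2% of all genes were. Mmp14, a membrane collagenase, read 8.39, 8.20, 8.39 and 7.88 in IL37TG, against 9.28, 9.05, 8.74 and 8.85 in WT (difference -0.77, SE 0.15, limma adjusted p = 0.0384). Fap, a protease of activated fibroblasts that cuts collagen fragments, read 7.30, 7.20, 7.21 and 7.06, against 7.70, 7.74, 7.67 and 7.47 (difference -0.45, SE 0.08, limma adjusted p = 0.0270). In both genes every transgenic array was lower than every wild-type array.

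Mmp9, the gelatinase of neutrophils and macrophages, read 7.26, 7.03, 8.11 and 7.51 in IL37TG, against 6.07, 5.88, 6.46 and 6.34 in WT (difference 1.29, SE 0.23, limma adjusted p = 0.0290). Timp4, an inhibitor of metalloproteinases made in fat, read 11.72, 11.71, 11.81 and 11.89, against 10.91, 11.17, 11.48 and 10.99 (difference 0.64, SE 0.12, limma adjusted p = 0.0334). Both rose, and their groups did not overlap. The other inhibitors of this family, Timp1, Timp2 and Timp3, differed by -1.26, -0.06 and 0.40, and none passed (limma adjusted p = 0.139, 0.743 and 0.0830). The fifth gene past the threshold, the lysosomal collagenase Ctsk, lay outside the rule for named genes and was named after its values were seen (-1.25, limma adjusted p = 0.0496). Calls were lost without any 1 of 5 arrays for Mmp9, of 6 for Fap and of 7 for Mmp14, Timp4 and Ctsk. With the number of the array name as a block, every pathway and marker gene named here as risen or fallen lost its call (limma adjusted p 0.0641 to 0.128). Acta1 was left aside, as this was not run for it. That block left 72 of all genes called, against 629, so few calls could have stayed. The same calls were lost with the letter as a block. There the groups are compared only within letter G, which held 1 IL37TG array, so that loss was close to fixed in advance. Mmp2, the gelatinase that Mmp14 activates, differed by -0.64 (limma adjusted p = 0.0725).

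**Figure D4:**
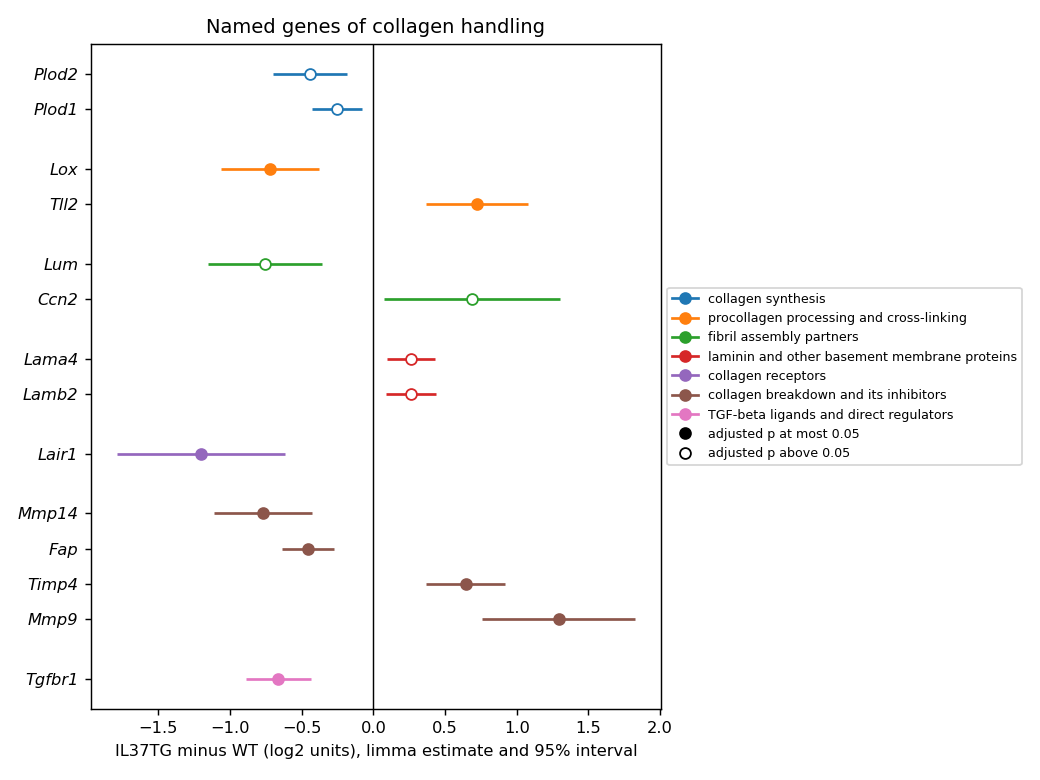
Differences (IL37TG minus WT, log2 units, limma estimate and unadjusted 95% interval) of the 14 genes that the naming rule took from 7 lists of collagen handling. Filled points passed an adjusted p of 0.05 over all genes (Lox, Lair1, Mmp14, Fap and Tgfbr1 lower, Tll2, Timp4 and Mmp9 higher) and open points did not.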

How the data were processed

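Biotin-labelled cDNA made from total RNA was hybridised to 1-colour arrays, per the labels' protocols. The deposited values are log2 expression per probe set from RMA, per the submitters' processing notes; its settings and version are not given in the sources used here. The platform annotation gave a single symbol to 21218 of 35556 probe sets (21185 updated by Entrez identifier through the GRCm38.p6 gene table). The probe set with the highest mean was kept, leaving 18820 genes. The 42 collagens had 46 probe sets, and 38 of the genes had only 1. Col7a1 and Col9a3 share probe sets with other genes and were not members.

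Groups came from the titles and were compared by limma 3.58.1 under R 4.3.3 (linear model with eBayes, two-sided, no filter, no block, Benjamini-Hochberg over all genes, threshold 0.05). Named genes were collagens past the threshold or with groups that did not overlap, the brightest 4 fibrillar, 4 basement membrane and 6 other collagens, and from each pathway list up to 4 genes past the threshold, or 2 with the lowest p. Ctsk, Col12a1, Acta1, Pdgfra, Pdgfrb, Pi16, Adipoq, Fcgr1, Pcolce, Mmp2, Timp1, Timp2 and Timp3 lie outside this rule and were named after their values were seen. The members, the pathway and marker lists and this rule were chosen with earlier results of these data known. Class averages carry no test. Same-numbered arrays deviated together with correlations of 0.0566 to 0.102, not all above 0.1, so the numbers were not taken as pairs. Alternatives changed scaling, filters, probe sets, variance prior, array weights, blocks and arrays. On simulated data of 18820 genes, 200 of them changed, 44% of genes changed by 0.5 and 84% of genes changed by 1 log2 unit were called. The simulated noise was independent between genes, unlike the array pattern that the collagens shared. These shares therefore do not give the power for the collagens. Figures used matplotlib 3.10.9. The number of arrays limits the precision.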

Additional observations from a re-analysis of the deposited data

Results flagged for a closer look

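Of 118 groups of 4 arrays examined (42 collagens, 14 pathway genes and 3 class averages, in each genotype), 7 had 1 array far from the other 3 (5.93%, where chance gives about 1 in 20). In IL37TG fat, replicate 1 stood apart for Col9a2 (5.33, the others 5.60 to 5.65) and Col25a1 (5.28, the others 4.89 to 4.91). IL37TG replicate 2 stood apart for Col14a1 (9.52, the others 8.85 to 8.93) and Col8a2 (4.97, the others 4.80 to 4.82), and IL37TG replicate 4 for Col27a1 (5.37, the others 5.61 to 5.64). In WT fat, replicate 2 stood apart for Col4a5 (5.63, the others 6.02 to 6.10) and replicate 3 for Col22a1 (5.24, the others 5.52 to 5.53). Col14a1 was the only 1 of these 7 genes at or above the median gene level.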

How the results depend on the processing

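The absence of calls among collagens held with a second quantile normalisation, median centring and averaged probe sets, where 697, 620 and 618 of all genes were called. It also held with each block, but these could hardly have called a collagen. The number and replicate blocks called 72 and 93 genes in all, against 629 in the main fit. The letter block compares the groups only within letter G, which held 1 IL37TG array. The number of collagens lower was 1 with a filter at the 25th percentile of gene means, with the trended and robust prior and with array weights (Col4a2 in all 3). It was 2 with a filter at the median gene (Col4a2 and Col1a1). Without WT replicate 3 and IL37TG replicate 4 together it was 1 (Col1a1), and with 1 array left out 0 to 1. Calls over all genes also rose from 629 in most of these settings. They were 869 of 14115 and 1295 of 9410 genes with the 2 filters. The prior gave 828, array weights 1263 and removal of both arrays 875 of 18820, and 1 array left out 82 to 1188. At an adjusted p of 0.1 the number of collagens lower was 3, where 8.17% of all genes were called. At an unadjusted p of 0.05 it was 8, and 1 was higher. Those 8 (a count whose alternatives were chosen after seeing the data) became 3 with the array-name letter as a block and 5 with the number, and 4 to 13 with 1 array left out. Shares of all genes at the unadjusted limit are not given for these blocks and removals, so the changes in that count were not read as particular to collagens. Collagens without overlap numbered 4, where 14.0% of all genes did not overlap. They numbered 2 after median centring, 12 without both arrays and 4 to 12 with 1 array left out. Leaving arrays out cannot lower such a count for any set of genes, so its rise was not read as particular to collagens either. With the letter as a block the fibrillar mean difference was 0.0559 and that of basement membrane collagens -0.13. With no block, the type IV genes alone gave -0.0348 in place of 0.01 for all basement membrane collagens. Leaving out 1 array, the class differences ran from -0.21 to -0.07 (fibrillar), -0.0323 to 0.0371 (basement membrane) and -0.19 to -0.11 (other). Also under the letter block, Col3a1 became 0.0125, Col6a1 0.0897, Col6a2 0.0320, Col6a3 0.0461, Pdgfra 0.0734 and Ccn2 -0.25, and under the number block Col14a1 became 0.00136. With 1 array left out, Col6a5 ran from -0.84 to 0.0233, Col6a6 from -0.17 to 0.00805 and Col14a1 from -0.25 to 0.0629. The replicate block gave 0 collagens higher and 0 lower, with 93 genes called in all against 629. Of 303 values for 16 named collagens, 287 kept direction and side of the threshold, 8 newly passed and 8 changed sign; of 398 for 21 other genes, 263 kept both, 107 lost their call, 26 newly passed and 2 changed sign. The causes were not tested. No detection calls were used, so what dim probes limit is unknown beyond their level.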

Other observations

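Several collagen genes lie next to each other in the genome, with no protein-coding gene between them, and neighbours can be read side by side. Col3a1 and Col5a2 differed by -0.32 and -0.40, Col6a2 and Col6a1 by -0.31 and -0.33, and Col4a1 and Col4a2 by -0.25 and -0.41. The dim pairs Col4a4 and Col4a3 differed by 0.06 and 0.09, Col4a6 and Col4a5 by 0.23 and 0.07, and Col9a1 and Col19a1 by -0.02 and 0.02. Other neighbours were less alike, with Col6a6 and Col6a5 at -0.10 and -0.51 and Col6a5 and Col6a4 at -0.51 and -0.01.

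The low Col6a5 value of IL37TG replicate 1 was present in both probe sets of the gene. The second set read 7.13, 9.23, 8.77 and 8.90 in IL37TG, against 9.36, 8.25, 8.92 and 9.16 in WT. The second set of Col6a6 was also lowest on that array (7.35, with 7.45 to 7.76 on the other transgenic arrays). The second sets of Col5a1 and Col20a1 differed by 0.01 and 0.13. A probe set shared by Col7a1, the anchoring fibril collagen of skin, and a microRNA gene differed by 0.05, and a set shared by Col9a3 and Tcfl5 by -0.03.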
